A study of Homo sapiens with 3 samples.

Results

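The genes of the RNA polymerase and general transcription machinery were taken as all protein-coding genes whose symbol starts with POLR1, POLR2, POLR3, GTF2 or GTF3, or with TAF or MED followed by a number, in RefSeq on hg38. There were 125 such genes among 19866 protein-coding genes on the chromosomes. By symbol, 8 belonged to polymerase I, 15 to polymerase II, 10 to polymerase III, 25 to the general factors, 37 to TFIID and other TAFs and 30 to Mediator. The study made chromatin immunoprecipitation libraries from HCT116, a human colorectal cancer cell line, in which Flag-tagged VCP was overexpressed. VCP is an ATPase that pulls ubiquitin-tagged proteins out of complexes. One library each was made with an antibody to VCP, with an antibody to Flag and from input chromatin, and all 3 came from fixed cells whose chromatin was cut with micrococcal nuclease. The VCP and Flag peak lists were used. Whether the cells were 1 clone, and which promoter drove the tagged protein, is not given in the labels. The input had no peak list here, and no library without the tagged protein was analysed here.

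RNA polymerase I makes the large ribosomal RNAs, polymerase II makes messenger RNAs, and polymerase III makes transfer RNAs and other short RNAs. General factors place each polymerase at its promoters. TFIID, built from the TATA-binding protein and TAFs, recognises polymerase II promoters, SL1 does so for polymerase I with TAFs of its own, and Mediator links activators to polymerase II. In yeast and human cells VCP is known to help remove the ubiquitin-tagged largest subunit of stalled polymerase II from chromatin. The peaks counted here lie at the genes that encode these proteins and say nothing of where the proteins themselves bind.

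A gene was counted when a peak summit lay within 1 kb of either of its outer ends. The VCP list had such a summit at 9 of the 125 machinery genes (7.20%, exact binomial 95% interval 3.35 to 13.2), against 2.34% of all protein-coding genes. The Flag list had 1 or more at 26 of 125 (20.8%, 14.1 to 29), against 11.7% of all protein-coding genes. Both lists marked 3 machinery genes (2.40%, 0.498 to 6.85), against 0.987% of all. In all, 32 machinery genes were marked by either list and 93 by neither, against 2602 and 17264 of the 19866 protein-coding genes. The all-gene shares include genes that may be silent in these cells, and whether expression accounts for the distance from them was not tested. With 1 library per antibody there was no replicate check and no test, and intervals cover counting error only.

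Most of these peaks were weak. With peaks limited to a q of at most 0.05, 1 machinery gene kept a VCP summit (0.80%), against 0.272% of all protein-coding genes, and 14 kept a Flag summit (11.2%, 6.26 to 18.1), against 5.53%. None of the 125 then had both, against 0.111% of all genes. A count of 0 allows a share of up to 2.40% when 3 counts are taken as the limit, and 2.91% by the exact binomial interval. Neighbouring genes that share a peak were each counted. When each peak was given to the gene with the nearest end, 4 machinery genes had a VCP summit (3.20%), against 1.97% of all protein-coding genes, and 23 had a Flag summit (18.4%), against 9.80% of all. A tie went to the symbol earlier in the alphabet. The VCP summit at TAF9, equally near an end of AK6, was therefore given to AK6.

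**Figure D1:**
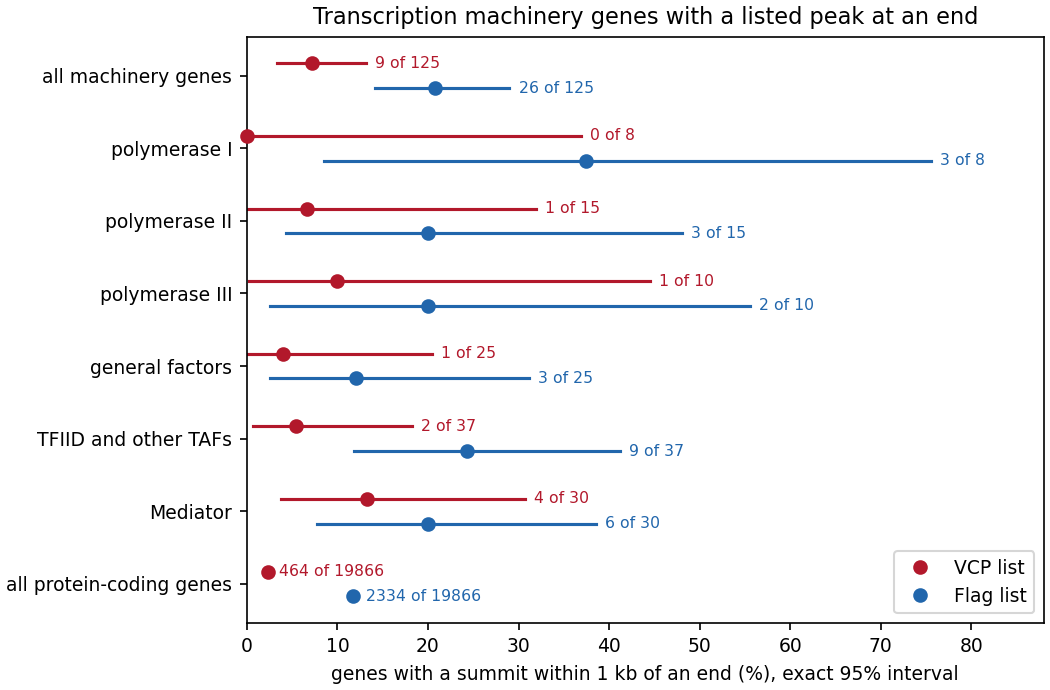
Share of genes with a summit within 1 kb of an end (x axis, percent) for all machinery genes, each complex and all protein-coding genes, with exact 95% intervals. The VCP list (red) marked 9 of 125 machinery genes and the Flag list (blue) 26 of 125, and the intervals of single complexes are wide.

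The DNA beside these peaks is shown by RefSeq promoter windows (GRCh38.p14), which run from 250 bases before a gene's start to 50 from the start on. The table held windows for 100 of the 125 genes and for 25 of the 32 marked ones. A window was shown for the peak with the highest -log10 q in each complex and list, among peaks that overlap their own gene's window. These were TAF4 and MED23 for VCP, and POLR1A, POLR2B, POLR3E, GTF2H1, TAF5 and MED18 for Flag. The windows of the neighbours RPL7A and TBCB were added because the peaks of both lists at MED22 and POLR2I overlap them. A peak covered only part of each window. The VCP peaks covered 78 of the 300 bases at TAF4 and 169 at MED23. The Flag peaks covered 281 bases at POLR1A, 184 at POLR3E, 169 at GTF2H1, 145 at MED18, 93 at TAF5 and 39 at POLR2B. In the RPL7A window the VCP peak covered 26 bases and the Flag peak 194, and in the TBCB window 65 and 52. Summits lay inside the MED23, MED18, GTF2H1 and POLR3E windows and outside the other 6. Each is written 5′ to 3′ on the gene's strand, and capitals mark the motifs searched.
RPL7A (chr9:133347968-133348267, plus strand): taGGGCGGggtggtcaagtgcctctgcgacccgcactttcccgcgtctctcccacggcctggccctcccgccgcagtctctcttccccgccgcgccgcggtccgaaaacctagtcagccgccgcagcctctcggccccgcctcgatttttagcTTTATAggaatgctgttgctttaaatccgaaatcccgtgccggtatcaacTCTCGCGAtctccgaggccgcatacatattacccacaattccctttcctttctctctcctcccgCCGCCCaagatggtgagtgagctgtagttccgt
TBCB (chr19:36114717-36115016, plus strand): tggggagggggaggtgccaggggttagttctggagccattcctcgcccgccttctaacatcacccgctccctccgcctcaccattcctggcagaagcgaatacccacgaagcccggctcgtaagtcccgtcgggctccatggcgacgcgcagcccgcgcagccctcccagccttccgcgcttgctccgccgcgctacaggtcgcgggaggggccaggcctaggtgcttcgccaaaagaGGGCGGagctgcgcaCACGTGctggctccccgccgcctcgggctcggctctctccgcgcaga
TAF4 (chr20:62065832-62066131, minus strand): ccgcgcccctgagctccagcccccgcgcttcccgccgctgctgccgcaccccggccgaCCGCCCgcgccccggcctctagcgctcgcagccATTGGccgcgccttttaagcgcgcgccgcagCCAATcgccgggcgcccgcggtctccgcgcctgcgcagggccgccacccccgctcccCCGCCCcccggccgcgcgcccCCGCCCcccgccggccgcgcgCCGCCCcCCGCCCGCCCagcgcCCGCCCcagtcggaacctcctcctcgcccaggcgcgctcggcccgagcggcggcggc
MED23 (chr6:131628264-131628563, minus strand): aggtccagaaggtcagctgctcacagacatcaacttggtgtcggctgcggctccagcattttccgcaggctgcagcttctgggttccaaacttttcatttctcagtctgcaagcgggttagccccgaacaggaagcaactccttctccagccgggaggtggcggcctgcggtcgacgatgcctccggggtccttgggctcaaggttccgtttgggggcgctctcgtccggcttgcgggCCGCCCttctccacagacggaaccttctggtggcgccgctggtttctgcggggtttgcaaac
TAF5 (chr10:103367726-103368025, plus strand): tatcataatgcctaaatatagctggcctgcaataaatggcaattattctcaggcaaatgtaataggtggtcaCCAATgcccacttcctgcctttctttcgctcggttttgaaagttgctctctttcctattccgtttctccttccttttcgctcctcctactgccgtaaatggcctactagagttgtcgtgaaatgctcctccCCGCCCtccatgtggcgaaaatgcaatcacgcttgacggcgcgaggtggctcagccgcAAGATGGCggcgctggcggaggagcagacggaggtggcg
MED18 (chr1:28328790-28329089, plus strand): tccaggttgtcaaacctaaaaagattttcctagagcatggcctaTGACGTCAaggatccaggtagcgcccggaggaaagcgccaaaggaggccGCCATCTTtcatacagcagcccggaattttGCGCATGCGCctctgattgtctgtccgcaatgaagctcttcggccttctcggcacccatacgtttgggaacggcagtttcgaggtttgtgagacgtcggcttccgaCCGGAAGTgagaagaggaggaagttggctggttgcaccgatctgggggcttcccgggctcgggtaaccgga
POLR1A (chr2:86105837-86106136, minus strand): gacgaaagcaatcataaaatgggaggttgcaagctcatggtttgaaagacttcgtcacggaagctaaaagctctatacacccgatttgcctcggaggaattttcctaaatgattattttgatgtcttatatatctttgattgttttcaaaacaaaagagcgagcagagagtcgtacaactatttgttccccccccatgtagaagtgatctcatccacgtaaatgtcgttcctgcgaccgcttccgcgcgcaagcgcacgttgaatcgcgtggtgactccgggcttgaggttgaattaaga
POLR2B (chr4:56978646-56978945, plus strand): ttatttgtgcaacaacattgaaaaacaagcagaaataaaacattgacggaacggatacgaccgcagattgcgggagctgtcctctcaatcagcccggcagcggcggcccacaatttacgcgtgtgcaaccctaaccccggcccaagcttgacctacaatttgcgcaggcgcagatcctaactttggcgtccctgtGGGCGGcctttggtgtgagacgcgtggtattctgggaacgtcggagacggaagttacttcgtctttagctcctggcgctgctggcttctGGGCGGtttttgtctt
POLR3E (chr16:22297159-22297458, plus strand): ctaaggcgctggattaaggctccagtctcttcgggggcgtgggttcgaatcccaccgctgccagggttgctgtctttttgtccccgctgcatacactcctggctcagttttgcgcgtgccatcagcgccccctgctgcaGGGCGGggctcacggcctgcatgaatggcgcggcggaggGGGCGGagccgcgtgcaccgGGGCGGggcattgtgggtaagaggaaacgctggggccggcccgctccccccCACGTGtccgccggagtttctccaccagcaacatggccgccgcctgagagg
GTF2H1 (chr11:18322317-18322616, plus strand): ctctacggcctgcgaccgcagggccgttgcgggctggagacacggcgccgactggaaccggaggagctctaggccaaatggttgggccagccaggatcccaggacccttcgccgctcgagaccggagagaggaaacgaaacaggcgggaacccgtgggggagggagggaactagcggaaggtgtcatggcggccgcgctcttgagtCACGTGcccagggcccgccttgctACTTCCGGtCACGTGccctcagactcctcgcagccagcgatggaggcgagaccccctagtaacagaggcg

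Motifs were searched on both strands. Those of the activators of housekeeping genes were CCGGAAGT for ETS factors, GCGCATGC for the factor NRF1, AAGATGGC for the factor YY1, GGGCGG for the SP family and CCAAT for the factor NFY. The others were the TATA box, searched as TATAAA, the cyclic AMP element (CRE), searched as TGACGTCA, the E-box, searched as CACGTG, and the ZBTB33-type element, searched as TCTCGCGA. Matches of different motifs, or of a motif with itself on the other strand, may overlap. Many of the matches lay outside the stretch that the peak covered. The TAF4 window held 7 SP family matches and 2 of NFY, of which 1 SP family match was inside the VCP peak. The single SP family match at MED23 was inside its VCP peak. The MED18 window held CRE, YY1, NRF1 and ETS letters, and the ETS match alone was inside the Flag peak. Of the TAF5 matches (NFY, SP family and YY1), the NFY match alone was inside. The POLR1A window held none of the motifs, and the 3 matches at GTF2H1, of E-box and ETS letters, all lay outside its peak. At POLR3E 3 SP family matches were inside and the E-box outside, and at POLR2B 1 of 2 SP family matches was inside. In the RPL7A window 0 of 4 matches were inside the VCP peak and 3 of 4 inside the Flag peak, and in the TBCB window 2 of 2 and 1 of 2.

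At the complex level, the shares for the VCP list ranged from 0 of 8 polymerase I genes to 4 of 30 Mediator genes (13.3%, 3.76 to 30.7). Those for the Flag list ranged from 3 of 25 general factor genes (12%, 2.55 to 31.2) to 3 of 8 polymerase I genes (37.5%, 8.52 to 75.5). Over all protein-coding genes the shares were 2.34% (VCP) and 11.7% (Flag). The general factors were thus at the background in the Flag list. The intervals of all 6 complexes overlapped one another in each list, so no order among complexes can be read from these counts.

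Polymerase I had no gene of 8 with a VCP summit, which allows a share of up to 37.5% with 3 counts as the limit, and 36.9% by the exact interval. Flag summits lay at POLR1A, POLR1D and POLR1G. POLR1A encodes the largest, catalytic subunit, and its peak (chr2:86105647-86106117) had 16 reads at the summit (exact Poisson 95% interval 9.15 to 26) over a local background of 1.85 reads, a fold enrichment of 5.97 and a -log10 q of 5.47. That summit was inside the gene, 136 bp from its start. POLR1G, which encodes a subunit specific to polymerase I, had the machinery peak with the most reads, 22 (13.8 to 33.3) over a background of 3.77, with a fold enrichment of 4.82 and a -log10 q of 5.44. It lay 112 bp before the POLR1G start and 171 bp from an end of PPP1R13L. A weaker POLR1G peak stood 733 bp out, with 17 reads over a higher background of 5.01 and a fold enrichment of 3.0. POLR1D encodes a subunit that polymerases I and III share, and its summit 743 bp outside the gene rested on 8 reads (fold enrichment 3.16). A second POLR1D peak just beyond the 1 kb limit, 1068 bp inside the gene, had 15 reads and a -log10 q of 1.66, and lay 81 bp before a RefSeq start inside the outer ends.

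Among polymerase II genes, POLR2I carried summits of both lists. POLR2I encodes a small subunit that takes part in elongation and proofreading. Its VCP peak had 8 reads (3.45 to 15.8), a fold enrichment of 3.28 and a -log10 q of 0.21, and its Flag peak had 13 reads (6.92 to 22.2), a fold enrichment of 4.92 and a -log10 q of 3.18. The Flag peak was well inside the q threshold and the VCP peak was not. POLR2B, the second-largest subunit, had a Flag summit 95 bp inside its start with 11 reads (fold enrichment 4.21, -log10 q 1.87). POLR2E, a subunit of all 3 polymerases, had one 136 bp before its start with 9 reads (fold enrichment 3.51, -log10 q 0.81). POLR2A, which encodes the largest subunit, had no summit of either list at an end, and its nearest VCP summit was 154054 bp away and its nearest Flag summit 47401 bp away. The other 11 polymerase II genes had none either.

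Of 10 polymerase III genes, 1 had a VCP summit (10%, 0.253 to 44.5), against 2.34% of all protein-coding genes. A Flag summit was at 2 (20%, 2.52 to 55.6), against 11.7%. None had both (exact upper bound 30.8%), against 0.987% of all. POLR3G encodes a subunit that is exchanged for its paralog POLR3GL in most adult tissues. A VCP summit lay 700 bp inside POLR3G, with 11 reads and a fold enrichment of 3.53, and only 142 bp from an end of its neighbour MBLAC2. A Flag summit lay 728 bp beyond the downstream end of POLR3GL, with 16 reads, a fold enrichment of 5.97 and a -log10 q of 5.47. No other gene end was within 1 kb of that summit, coding or non-coding. POLR3E, which encodes another polymerase III subunit, had a Flag summit 154 bp before its start with 15 reads (8.40 to 24.7), a fold enrichment of 4.62 and a -log10 q of 3.28. This summit was 34 bp from the transfer RNA gene TRL-AAG2-4 (chr16:22297140-22297221), a kind of gene that polymerase III itself transcribes, and the peak covered 40 bp of it. The first 63 bases of the POLR3E window printed above belong to that transfer RNA gene. POLR3A and POLR3B, the 2 largest subunits, had no summit at an end.

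Of 25 general factor genes, 1 had a VCP summit (4%, 0.101 to 20.4), against 2.34% of all protein-coding genes. A Flag summit was at 3 (12%, 2.55 to 31.2), against 11.7%. TFIIH, which opens promoter DNA and also serves in excision repair, had Flag summits at 2 of its 6 genes of this name (33.3%, 4.33 to 77.7). GTF2H1 had 14 reads (7.65 to 23.5), a fold enrichment of 5.27 and a -log10 q of 3.90 at 165 bp before its start, in the stretch it shares with HPS5. GTF2H4 had 15 reads over a background of 4.08, a fold enrichment of 3.15 and a -log10 q of 1.26. GTF3A encodes TFIIIA, which is needed for the 5S ribosomal RNA genes, and its Flag summit 31 bp inside the gene had 10 reads (fold enrichment 3.86, -log10 q 1.29). TFIIA, TFIIB, TFIIE, TFIIF and TFIIIC had 0 marked genes of 2, 1, 2, 2 and 6. With so few genes the exact upper bounds ran from 45.9% (TFIIIC) to 97.5% (TFIIB), so no difference among factors can be read. The VCP summit was at GTF2IRD2B, a relative of GTF2I outside the basal factors, with 12 reads, a fold enrichment of 4.14 and a -log10 q of 1.13. GTF2IRD2B has a near-identical copy, GTF2IRD2, so the placement of its reads is uncertain.

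Of 37 genes of TFIID and other TAFs, 2 had a VCP summit (5.41%, 0.661 to 18.2), against 2.34% of all protein-coding genes. A Flag summit was at 9 (24.3%, 11.8 to 41.2), against 11.7%. None had both (exact upper bound 9.49%), against 0.987% of all. The VCP summits were at TAF4, a scaffold of TFIID, and at TAF9, a histone-fold subunit shared with the SAGA complex. TAF4 had 13 reads (6.92 to 22.2) over a background of 2.14, a fold enrichment of 4.46 and a -log10 q of 1.62, 278 bp before its start. It was the only machinery peak of the VCP list with a q of at most 0.05, and ranked 35 by -log10 q among the 395 VCP peaks at protein-coding gene ends. TAF9 was at the other extreme, with 11 reads over 3.85, a fold enrichment of 2.47 and a -log10 q of 0.05, and its summit was equally near the end of AK6, at 145 bp. No TAF4 or TAF9 summit was in the Flag list, where the nearest lay 284165 and 113777 bp from their VCP summits.

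Of the 15 genes of TFIID itself, 2 had a VCP summit (13.3%, 1.66 to 40.5), against 2.34% of all protein-coding genes. A Flag summit was at 4 (26.7%, 7.79 to 55.1), against 11.7%. Those Flag summits were at TAF5, TAF7, TAF12 and TAF4B. TAF5, a scaffold subunit, had the highest fold enrichment and -log10 q of any peak at a machinery gene end in either list, with 18 reads (10.7 to 28.4), a fold enrichment of 6.0 and a -log10 q of 6.20, rank 65 of 2027 Flag peaks at gene ends. TAF7 had 15 reads (fold enrichment 4.98, -log10 q 3.81) in a peak of 548 bp that spanned its whole promoter window. TAF12, the histone-fold partner of TAF4, had 2 Flag peaks, of 15 and 9 reads, and the stronger (fold enrichment 4.41, -log10 q 3.03) was 98 bp from RNU11, the gene of the U11 small nuclear RNA. TAF4B, a paralog of TAF4, had 8 reads and a fold enrichment of 3.16. SL1, the polymerase I selectivity factor, had Flag summits at 3 of its 4 TAF genes (75%, 19.4 to 99.4), against 11.7% of all protein-coding genes, and at 1 of 4 with q of at most 0.05. These were TAF1C with 14 reads (fold enrichment 4.67, -log10 q 3.14), TAF1B with 10 (3.51, -log10 q 0.97) and TAF1A with 9 (3.06, -log10 q 0.46). Outside both complexes, the RNA-binding protein gene TAF15 had 9 reads (fold enrichment 3.11). TAF6L, a SAGA subunit, had 9 reads (3.19) at its downstream end, nearer to TMEM179B. TAF1 and the 13 TAF11-like genes had no summit at an end. Those TAF11-like genes lie close together on chromosome 5, and whether reads could be placed there was not tested.

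Of 30 Mediator genes, 4 had a VCP summit (13.3%, 3.76 to 30.7), against 2.34% of all protein-coding genes. A Flag summit was at 6 (20%, 7.71 to 38.6), against 11.7%. In the head module, which contacts polymerase II, MED8 had a VCP summit with 11 reads (fold enrichment 3.23, -log10 q 0.39). MED17 and MED18 had Flag summits with 11 reads (4.04, -log10 q 1.73) and 13 reads (3.76, -log10 q 1.73). MED22, also of the head, had summits of both lists. MED23, a tail subunit that receives activator signals, had a VCP peak centred 6 bp from its start, with 15 reads (8.40 to 24.7) over 3.41, the most reads of any machinery peak in that list, and a fold enrichment of 3.63. In the middle module MED7 had 10 Flag reads (fold enrichment 3.86, -log10 q 1.29) and MED31 had 7 (2.81, -log10 q 0.20), the fewest at any machinery gene. MED13, of the kinase module that restrains Mediator, had summits of both lists. MED1, MED12 and MED14 had none.

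**Figure D2:**
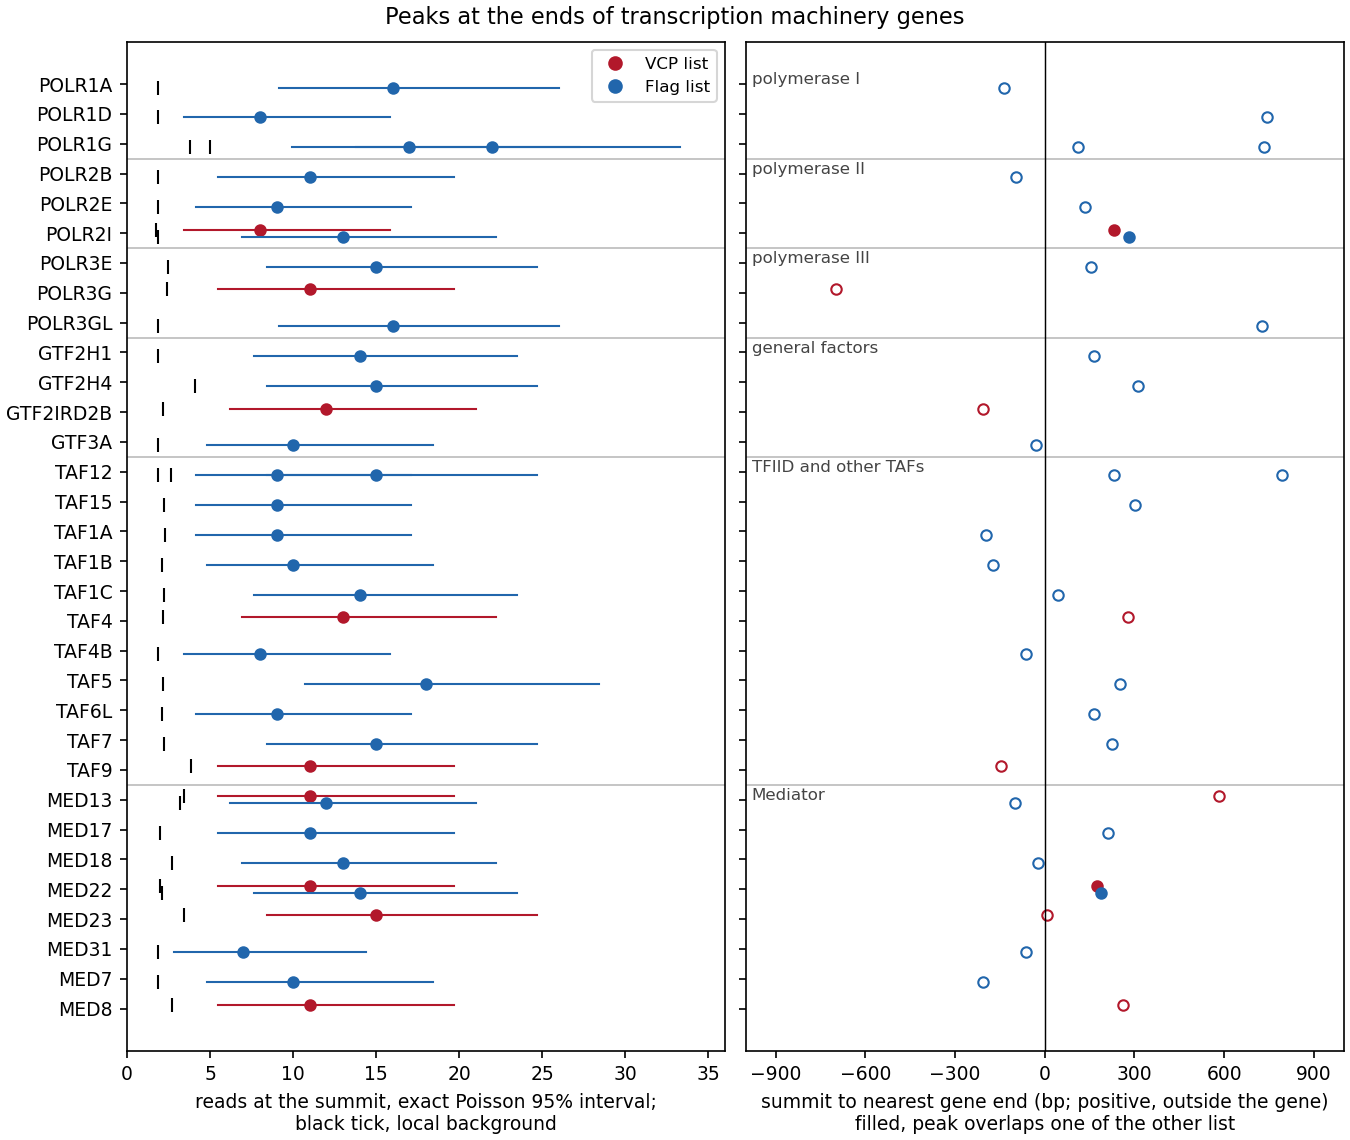
Reads at the summit with exact Poisson 95% intervals and the local background (left, reads), and distance from summit to the nearest gene end (right, bp, positive outside the gene), for every VCP (red) and Flag (blue) peak at a machinery gene. Reads ran from 8 to 15 for VCP peaks and from 7 to 22 for Flag peaks, and filled points on the right mark the overlapping peaks of MED22 and POLR2I.

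The machinery peaks had median values near those of all peaks at protein-coding gene ends. The median fold enrichment was 3.53 for the 9 VCP peaks at machinery genes and 3.61 for all 395 VCP peaks at gene ends. For the 28 Flag peaks it was 3.86, against 3.67 for all 2027. The q threshold of 0.05 was met by 1 of the 9 VCP peaks (11.1%, 0.281 to 48.2), against 11.6% of the 395, and by 14 of the 28 Flag peaks (50%, 30.6 to 69.4), against 45.1% of the 2027. The 4 machinery peaks with a -log10 q of at least 5 were all Flag peaks, at TAF5, POLR1A, POLR3GL and POLR1G. At that threshold 1 of 19866 protein-coding genes had a VCP summit and 139 had a Flag summit. Several genes had identical values, such as POLR1A and POLR3GL, because both rested on 16 reads over the lowest background of the list.

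**Figure D3:**
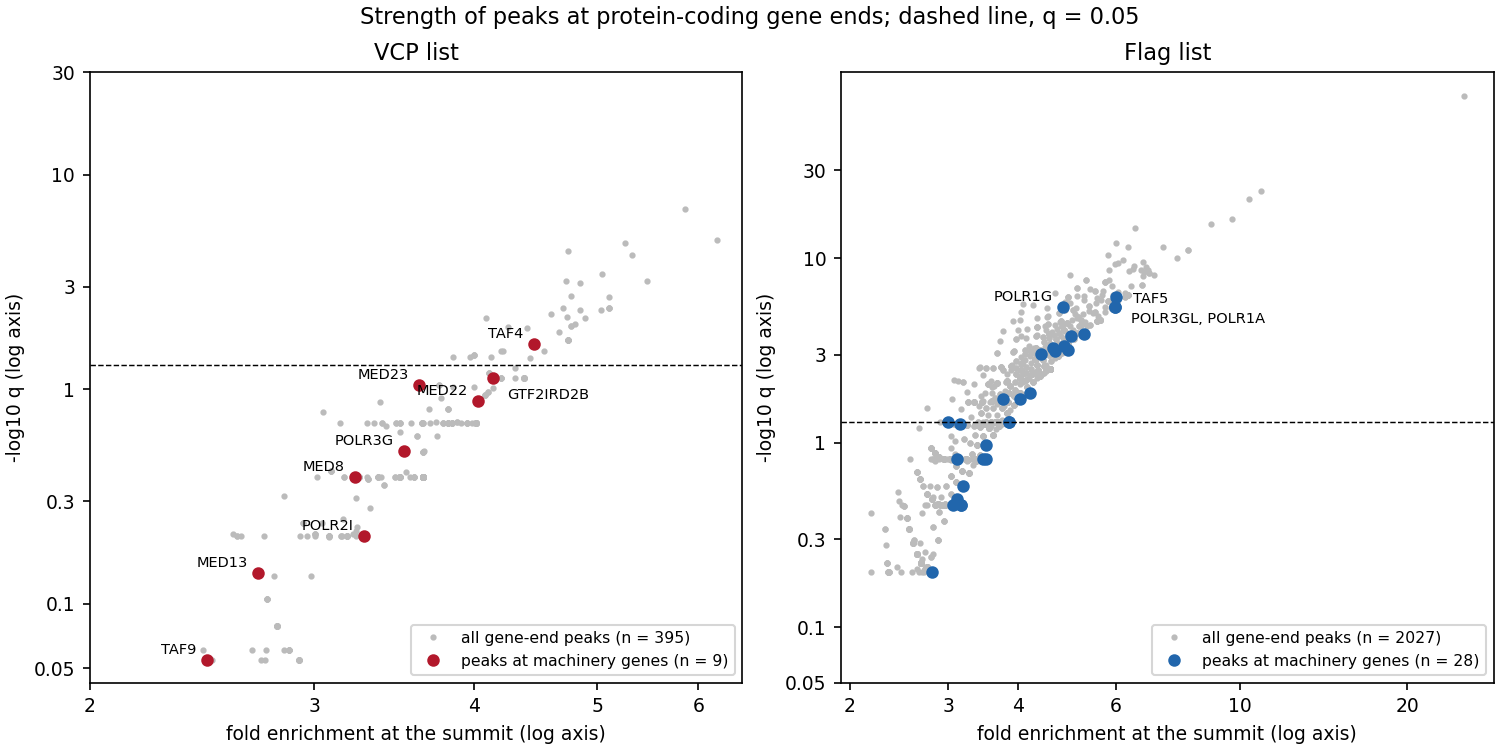
Fold enrichment (x, log axis) against -log10 q (y, log axis) of every peak at a protein-coding gene end in the VCP list (left) and the Flag list (right), with peaks at machinery genes in colour. TAF4 is the only coloured VCP point above q = 0.05, and TAF5, POLR1A, POLR3GL and POLR1G are the highest coloured Flag points.

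MED22, POLR2I and MED13 had summits of both lists, 33.3% of the machinery genes in the VCP list and 11.5% of those in the Flag list. Over all protein-coding genes these shares were 42.2% and 8.40%. At MED22 the VCP peak (chr9:133348242-133348424) had 11 reads (5.49 to 19.7), a fold enrichment of 4.03 and a -log10 q of 0.88. The Flag peak (chr9:133348074-133348424) had 14 reads (7.65 to 23.5), 4.84 and 3.34. The VCP peak lay wholly within the Flag peak and the summits were 12 bp apart. Both lay between MED22 and RPL7A, which encodes a ribosomal protein, and nearer to RPL7A, at 88 and 100 bp, than to MED22, at 175 and 187 bp.

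At POLR2I the peaks (VCP chr19:36114952-36115142, Flag chr19:36114965-36115226) overlapped by 178 bp with summits 51 bp apart. They also stood nearer to a neighbour, TBCB, which encodes a tubulin folding cofactor. The MED13 peaks did not overlap, since the VCP summit was 584 bp outside the gene and the Flag summit 98 bp inside it, with a gap of 483 bp between the peaks. The local background at MED13 was 3.42 reads for the VCP peak and 3.17 for the Flag peak, where the medians of all peaks at gene ends were 2.11 (VCP) and 2.27 (Flag). Parts of 17q, where MED13 and TAF15 lie, and of 10q, where TAF5 lies, are known to be gained in HCT116. The local backgrounds of the TAF5 and TAF15 Flag peaks were below the median of 2.27 reads, and the part of copy number in any of these peaks was not tested. Thus 2 of the 9 VCP peaks at machinery genes overlapped a Flag peak (22.2%, 2.81 to 60), against 32.4% of all VCP peaks at gene ends.

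**Figure D4:**
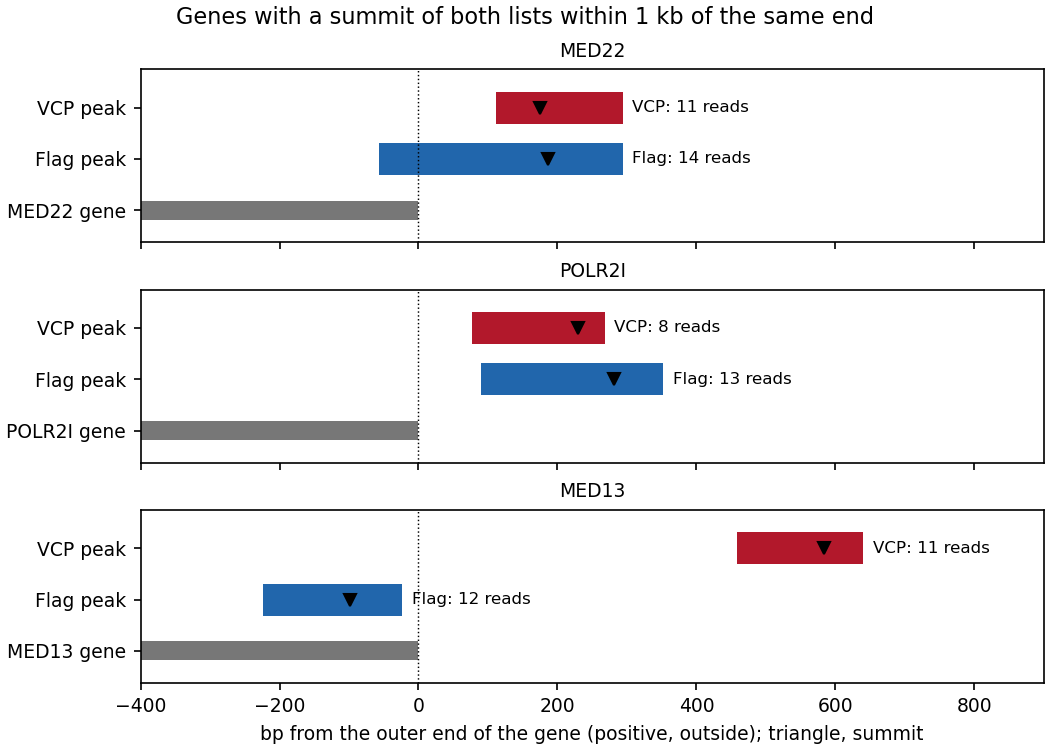
Peaks of the VCP (red) and Flag (blue) lists at the 3 machinery genes with summits of both, by distance in bp from the gene's outer end, with triangles at the summits. The peaks overlap at MED22 and POLR2I and are 483 bp apart at MED13.

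Many of the marked genes were close to another gene. Of the 9 VCP peaks at machinery genes, 5 had the ends of at least 2 protein-coding genes within 1 kb (55.6%, 21.2 to 86.3), against 17.7% of all VCP peaks at gene ends. Of the 28 Flag peaks 8 did (28.6%, 13.2 to 48.7), against 19.9%. The genes themselves were placed likewise, since 19 of the 32 marked machinery genes had another coding gene's end within 1 kb of their own (59.4%, 40.6 to 76.3), against 30 of the 93 unmarked (32.3%, 22.9 to 42.7) and 28.5% of all protein-coding genes. Among all protein-coding genes with a summit of either list the share was 44.5%. A gene with a near neighbour can be counted through that neighbour's peak, as at POLR3G, MED22, POLR2I and TAF6L, whose summits were nearer to the neighbour.

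Where a strand was known the summits were mostly at the upstream outer end of the gene. This held for all 3 such genes in the VCP list (TAF4, TAF9 and MED23) and for 20 of 22 in the Flag list, the exceptions being POLR3GL and TAF6L. One of the 20, TAF12, had both Flag summits more than 1 kb before the start in the RefSeq promoter table, so that 19 genes had a Flag summit within 1 kb of such a start. Over all protein-coding genes with a known strand, 344 of 384 marked in VCP and 1847 of 1960 marked in Flag had their nearest summit at the upstream outer end. The median distance from summit to gene end was 230 bp for the machinery genes of the VCP list, against 183 bp for all protein-coding genes. For those of the Flag list it was 169 bp, against 184 bp. Just inside the 1 kb limit were POLR3G at 700 bp in the VCP list (fold enrichment 3.53) and TAF12 at 792 bp in the Flag list (3.46). Just beyond it were POLR2L at 1143 bp in the VCP list (4.10), and POLR1D at 1068, TAF6L at 1073 and GTF2A2 at 1134 bp in the Flag list (3.46, 3.18 and 3.51). Another Flag peak near POLR1G, 1353 bp outside it, had a fold enrichment of 5.40 and a -log10 q of 6.79. Its -log10 q, but not its fold enrichment, was above that of every peak counted at a machinery gene. Further inside the genes, TAF2 had a VCP peak in its body (fold enrichment 3.40, -log10 q 0.36). TAF2 lies on the long arm of chromosome 8, parts of which are also known to be gained in HCT116. The part of copy number in its peak was not tested. GTF2IRD1 had 2 Flag peaks in its body, the stronger with 12 reads, a fold enrichment of 4.57 and a -log10 q of 2.51.

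Of the 9 motifs, the ETS letters were the one whose intervals in marked and in unmarked machinery windows both lay above the share in all windows. The ETS letters were in 9 of 29 windows of marked genes (31.0%, 15.3 to 50.8), in 16 of 90 windows of unmarked machinery genes (17.8%, 10.5 to 27.3) and in 5.34% of 22199 windows of all protein-coding genes. The E-box was in 24.1% of marked windows (10.3 to 43.5), 12.2% of unmarked windows (6.26 to 20.8) and 8.34% of all. The YY1 letters were in 6.90%, 11.1% and 3.53% in the same order, and the SP family letters in 62.1%, 63.3% and 56.3%. NFY was in 44.8%, 24.4% and 34.7%, NRF1 in 6.90%, 6.67% and 3.74%, and the TATA box in 6.90%, 6.67% and 9.47%. CRE was in 6.90%, 3.33% and 2.26%, and the ZBTB33-type letters in 3.45%, 3.33% and 1.58%. Intervals of marked and unmarked machinery windows overlapped for all 9 motifs. Median GC content was 61.3% in marked, 59.3% in unmarked and 62.3% in all windows. Some genes have several windows, which can share bases, so the windows are not independent of one another.

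**Figure D5:**
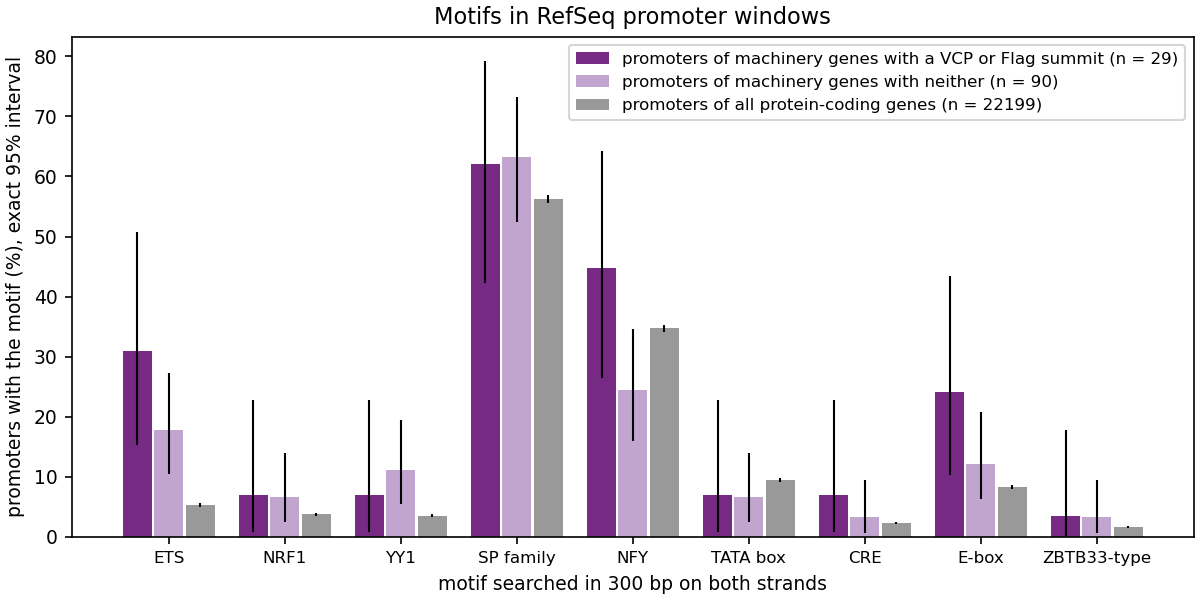
Share of RefSeq promoter windows of 300 bp that hold each motif on either strand (y axis, percent, exact 95% intervals), for machinery genes with a summit, machinery genes without one and all protein-coding genes. ETS letters were in 31.0%, 17.8% and 5.34% of windows, and intervals of the first 2 groups overlap.

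Other genes of transcription, listed by name, gave the counts below, to be read against 2.34% (VCP), 11.7% (Flag) and 0.987% (both) of all protein-coding genes. Of 23 partners of the same complexes outside the symbol rule, 1 had a VCP summit (4.35%, 0.11 to 21.9), UBTF, a polymerase I factor (fold enrichment 3.28). A Flag summit was at 4 (17.4%, 4.95 to 38.8): SNAPC2 (4.75) and SNAPC3 (3.67), of the complex for small nuclear RNA promoters, the Mediator kinase CDK8 (4.03) and the repressor subunit DRAP1 (3.67). Of 30 pausing and elongation factors, 1 had a VCP summit (3.33%, 0.0844 to 17.2) and 6 a Flag summit (20%, 7.71 to 38.6). HEXIM1, an inhibitor of the elongation kinase P-TEFb, was the 1 with both (VCP 14 reads, fold enrichment 3.09, and Flag 21 reads, 4.33). The P-TEFb cyclins CCNT1 (3.49) and CCNT2 (3.59), AFF4 (3.67), RTF1 (2.90) and SUPT16H (3.61) had Flag summits. Of 14 Integrator genes, whose complex processes and terminates nascent RNA, 2 had a VCP summit (14.3%, 1.78 to 42.8), INTS2 (2.46) and INTS5 (4.11), and 7 a Flag summit (50%, 23 to 77), with none in both. The Flag peaks at INTS9, INTS11, INTS12, INTS13 and INTS14 had another coding gene's end within 1 kb. The Flag values were 6.32 for INTS8, 4.92 for INTS9, 4.41 for INTS13, 4.04 for INTS11, 3.67 for INTS12, 3.25 for INTS1 and 3.17 for INTS14. Of 6 genes of mitochondrial transcription, 1 had a VCP summit (16.7%, 0.421 to 64.1) and 2 a Flag summit (33.3%, 4.33 to 77.7). TFB2M had both (VCP 3.50, Flag 4.72), with its neighbour CNST within 1 kb, and the polymerase gene POLRMT a Flag summit (4.52). As a check on the cell type, 0 of 10 colorectal epithelium markers had a VCP summit and 1 (KRT19) a Flag summit, against 0 of 11 markers of blood, endothelium and stroma in either list, so these peak lists do not test the label.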

How the data were processed

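Fixed HCT116 chromatin (1% formaldehyde, 10 minutes, per the labels' protocols) was immunoprecipitated with an antibody to VCP or to Flag, 1 library each. Per the submitters' processing notes, the tools named are MACS2 2.1.0, Bowtie 1.1.2 and Trimmomatic 0.33, on hg38, with settings not given in the sources used here. Each deposited list gives per peak the authors' fold enrichment over local background, -log10 p, -log10 q and a score, which is 10 times -log10 p rounded down and was not used further. No deposited -log10 p was under 3.0.

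Summit reads and their background were solved for each peak from its fold enrichment and -log10 p (pseudocount 1 read), with a match within 0.001 for all 1816 VCP and 5719 Flag peaks. Library totals are not in these files. The lowest background was 1.74 reads (VCP) and 1.85 reads (Flag).

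Of 59792 rows of the RefSeq gene table (GRCh38.p14), 58961 on assembled chromosomes were kept, of which 19866 were protein-coding. That table has no strand. Strand and promoter sequence came from the RefSeq promoter table. Counts were compared with no test, with Clopper-Pearson 95% intervals (SciPy 1.17.1). Code was tested on simulated data. All genes with a summit at an end were named, with the largest subunits of each complex. The windows to print were chosen after the peaks' values were seen. The members and gene lists were chosen with earlier results of these data known. Of 26 partner genes listed by name, 3 were older symbols of member genes and were left out of that list.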

Additional observations from a re-analysis of the deposited data

How the results depend on the processing

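The counts rest on weak peaks, on shared gene ends and on 1 library per antibody. No paired analysis was possible because each antibody had 1 library, and no replicate could be left out. Of 31 alternatives over the 4 results, 19 stayed within 1.5 times the reported value and 12 did not. That rule compares the counts at machinery genes only, not their distance from the share of all genes. With summits anywhere in the gene body or within 1 kb, VCP and Flag gave 10 (8%) and 28 (22.4%) machinery genes. The shares of all protein-coding genes then rose to 4.63% and 17.5%, so the Flag share was nearer to the background. With q of at most 0.05, the machinery genes with a VCP summit, a Flag summit and both numbered 1, 14 and 0, and 0 VCP peaks at machinery genes overlapped a Flag peak. With -log10 q of at least 5 they numbered 0, 4 and 0, against 1, 139 and 0 of all protein-coding genes. With gene starts only, for the 100 genes in the promoter table, VCP and both gave 3 (3%) and 0. The shares of all protein-coding genes in that table were 2.37% and 1.05%, so the VCP share was then near the background. Only 3 of the 9 machinery genes of the VCP list are in that table. MED22, POLR2I and MED13 are not in that table, so the 0 follows from the genes left. With each peak given to the nearest gene, VCP and both gave 4 (3.20%) and 1 (0.80%), against 1.97% and 0.795% of all genes, so the share with both was then at the background. When only the Flag peaks of lowest q were used, as many as there are VCP peaks, 14 machinery genes had a Flag summit, against 5.33% of all genes. The core subunits alone (96 genes, without paralogs and name-sakes) gave 8 (8.33%), 23 (24%) and 3 (3.12%), against 2.34%, 11.7% and 0.987% of all protein-coding genes.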
